A study of Homo sapiens with 24 samples.

Results

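Aminoacyl-tRNA synthetases attach each amino acid to its transfer RNA, the step that feeds the ribosome. Of 36 human synthetase genes sought by symbol in the deposited expression table, 34 were present among 18172 genes tested: 19 of 20 that encode cytosolic enzymes and 15 of 16 that encode mitochondrial enzymes, whose symbols end in 2. FARSB and WARS2 were not found under their symbols and are not among the 34. The measurements come from 24 Illumina arrays, 3 in each of 8 groups, of the colorectal cancer line HCT116 grown in DMEM with glucose. Cells were transfected with siACL, an interfering RNA against ATP citrate lyase, or with siMock as control. Each arm had an untreated group and groups that received 0.5, 2 and 5 mM butyrate over 3 days. All groups were therefore transfected and share the single cell line, and the arms differ in what was transfected. Butyrate is a short-chain fatty acid that inhibits histone deacetylases and can be burned as fuel, and ATP citrate lyase makes cytosolic acetyl-CoA from citrate. The design asks how the dose response depends on that enzyme.

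Human cells carry separate sets of synthetases for the cytosol and for the mitochondrion, and all are encoded in the nucleus. GARS and KARS each encode the enzyme of both compartments, and they were counted here as cytosolic. EPRS charges both glutamate and proline. Several cytosolic enzymes sit with scaffold proteins in a large multisynthetase complex. Many cytosolic synthetase genes are known targets of ATF4, the transcription factor of the amino acid response, which binds C/EBP-ATF response elements (CARE). Symbols are those of the array. The cytosolic genes other than FARSA now carry a 1 at the end (IARS is IARS1).

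The deposited value of a gene is a normal score, its rank within the array placed on a standard normal curve, so that a score of 0 is the array's median and differences are not folds. A rank can move because other genes moved, and a change shared by all genes cannot be seen. Differences are given as group means subtracted, with the standard error from limma. A gene is called where its Benjamini-Hochberg adjusted p over the 18172 genes was under 0.05, and "rose" and "fell" are used for called genes. Arrays of 1 group correlated at r = 0.928 to 0.955 across genes. In bulk RNA, fewer expressing cells and less RNA per cell cannot be told apart. Of the markers fixed for the check of cell identity, 6 of 7 epithelial markers had a mean score above 0, against 1 of 3 fibroblast, 0 of 2 immune and 0 of 2 endothelial markers. ACLY, the gene of ATP citrate lyase, scored 1.17, 1.21 and 1.17 on the untreated siACL arrays, against 1.50, 1.53 and 1.53 on the untreated siMock arrays, and was lower in siACL at every dose.

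Upstream sequence was searched because the ATF4 element is known from several of these genes. RefSeq windows on GRCh38.p14, running from 250 bases before to 50 bases after a transcript start, were at hand for 28 of the 34 genes. The CARE core TGATGNAA, on either strand, occurred in the windows of 7 of 15 cytosolic genes (46.7%) and 1 of 13 mitochondrial genes (7.69%), against 4.46% of the 27305 genes with a window. The stretches below carry these matches and show how alike they are. The core, or its reverse complement TTNCATCA, is in capitals.
AARS, chr16:70289676-70289703, minus strand: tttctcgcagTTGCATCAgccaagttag
CARS, chr11:3057408-3057435, minus strand: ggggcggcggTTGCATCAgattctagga
GARS, chr7:30594835-30594862, plus strand: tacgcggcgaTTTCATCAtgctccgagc
IARS, chr9:92293693-92293720, minus strand: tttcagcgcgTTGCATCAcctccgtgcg
MARS, chr12:57488054-57488081, plus strand: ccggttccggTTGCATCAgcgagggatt
NARS, chr18:57621805-57621832, minus strand: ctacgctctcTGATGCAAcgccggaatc
TARS, chr5:33440957-33440984, plus strand: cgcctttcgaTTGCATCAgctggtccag
YARS2, chr12:32756077-32756104, minus strand: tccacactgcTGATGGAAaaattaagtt
Of the cytosolic matches, 6 read TTGCATCA on one strand or the other, and GARS reads TTTCATCA. The first base of the match lay 187 bases before the start in AARS and 197 before it in YARS2, and between 33 before and 15 after the start in the other 6. For GARS and TARS the start used lies inside the span of another transcript. A match is a stretch of letters and not a measured binding site. No window was at hand for DARS, LARS, VARS, YARS, AARS2 and VARS2. The E-box CACGTG occurred in 1 of 15 cytosolic and 3 of 13 mitochondrial genes, against 8.77% of genes.

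Synthetase transcripts ranked high on the arrays, the cytosolic ones higher as a class. The mean score over all arrays had a median of 1.41 over the cytosolic genes and 0.66 over the mitochondrial genes, against 0.11 over all genes tested. Highly ranked genes were also measured more tightly: the median SD between arrays of a group was 0.023 for cytosolic, 0.043 for mitochondrial and 0.081 for all genes. Smaller differences can therefore be called in this family. For this reason counts are read below against all genes and also against the 8640 genes whose mean score lay in the range of the 34 (0.07 to 1.83).

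At 5 mM butyrate most synthetase transcripts stood at a lower rank than in untreated cells of the same arm. In all, 20 of the 34 genes fell and 6 rose in siACL, and 18 fell and 7 rose in siMock. Among the cytosolic genes 14 of 19 fell in siACL and 12 of 19 in siMock. Among the mitochondrial genes 6 of 15 fell in each arm, while 4 of 15 rose. Of all genes tested, 22.6% fell and 22.7% rose in siACL (45.2% called), and 25.2% fell and 25.6% rose in siMock (50.8% called). Of the genes in the same score range, 34.4% fell and 32.8% rose in siACL, and 37.2% fell and 35.5% rose in siMock. The share of cytosolic genes that fell was thus above both backgrounds, while that of mitochondrial genes was close to that of genes of like score. That range was set by all 34, and the cytosolic genes spanned 0.61 to 1.83 of it. Their smaller SD between arrays let smaller differences be called than in the mitochondrial genes, so the shares of the classes are not on an equal footing. In both directions together 76.5% of the 34 were called in siACL and 73.5% in siMock, against 67.2% and 72.7% of genes of like score, so in siMock it was the direction and not the number of calls that stood apart from that background. The difference between the classes was not tested. The median difference at 5 mM was −0.14 (cytosolic) and −0.07 (mitochondrial) in siACL, and −0.11 and −0.06 in siMock, against −0.02 and −0.01 over all genes in siACL and siMock.

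**Figure D1:**
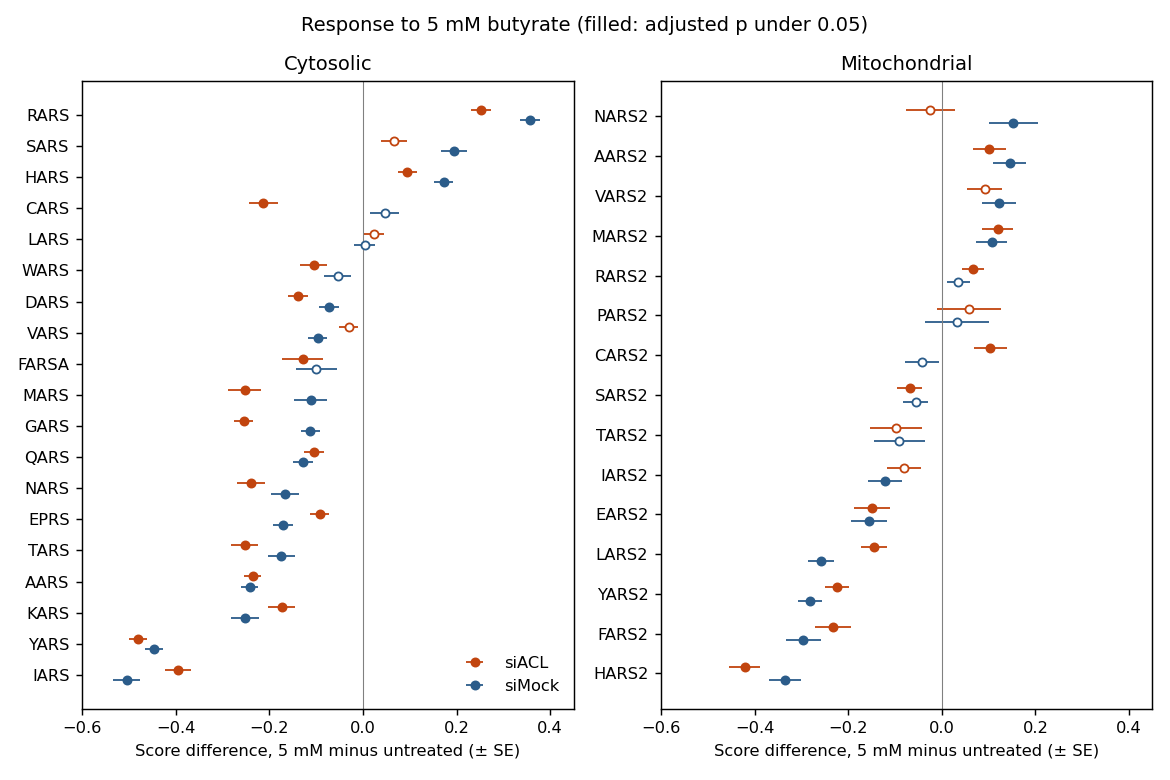
Score difference at 5 mM butyrate minus untreated for each of the 34 genes, with bars for the standard error (3 arrays per group); siACL is drawn above siMock and filled points had an adjusted p under 0.05. Most cytosolic genes lie left of 0 in both arms, IARS and YARS farthest, and RARS lies farthest to the right.

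The 2 mM dose showed the lowering with few rises. In siACL 18 genes fell and 2 rose, against a background of 12.8% lower and 26.5% called in all (21.9% lower in the same score range). In siMock 22 fell and 2 rose, against 19.3% lower and 37.9% called (29.8% lower and 56.9% called in the same range). There were 13 cytosolic and 5 mitochondrial genes among those that fell in siACL, and 14 and 8 in siMock. At 0.5 mM fewer were called. In siACL 3 genes fell and 1 rose, with 7.24% of all genes called (2.45% lower and 4.79% higher) and 12.1% in the same score range. In siMock 13 fell and none rose by limma (3 were higher at an unadjusted p under 0.05), with 22.1% of all genes called and 10.1% lower (17.0% lower and 35.4% called in the same range). Without replicate 1 of untreated siACL 1 gene was called in siACL, and without replicate 2 of untreated siMock 8 were called in siMock. That siMock count was 3 when fitted on the arrays compared alone and 6 at an adjusted p under 0.01.

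Per array, the median change of the cytosolic genes hardly varied within a group. Measured from the untreated siMock mean, it was 0.047 ± 0.004, 0.029 ± 0.005, −0.085 ± 0.004 and −0.097 ± 0.012 at 0, 0.5, 2 and 5 mM in siACL (SD, n = 3). In siMock it was 0.001 ± 0.003, −0.047 ± 0.007, −0.141 ± 0.007 and −0.113 ± 0.005. The mitochondrial genes gave −0.010 ± 0.003, 0.011 ± 0.006, −0.050 ± 0.007 and −0.047 ± 0.015 in siACL, and 0.002 ± 0.008, −0.060 ± 0.025, −0.116 ± 0.035 and −0.056 ± 0.029 in siMock. Both classes were at their lowest group mean at 2 mM in siMock. In siACL the cytosolic median stood above that of siMock on every array at 0, 0.5 and 2 mM. The mitochondrial median did so at 0.5 and 2 mM.

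**Figure D2:**
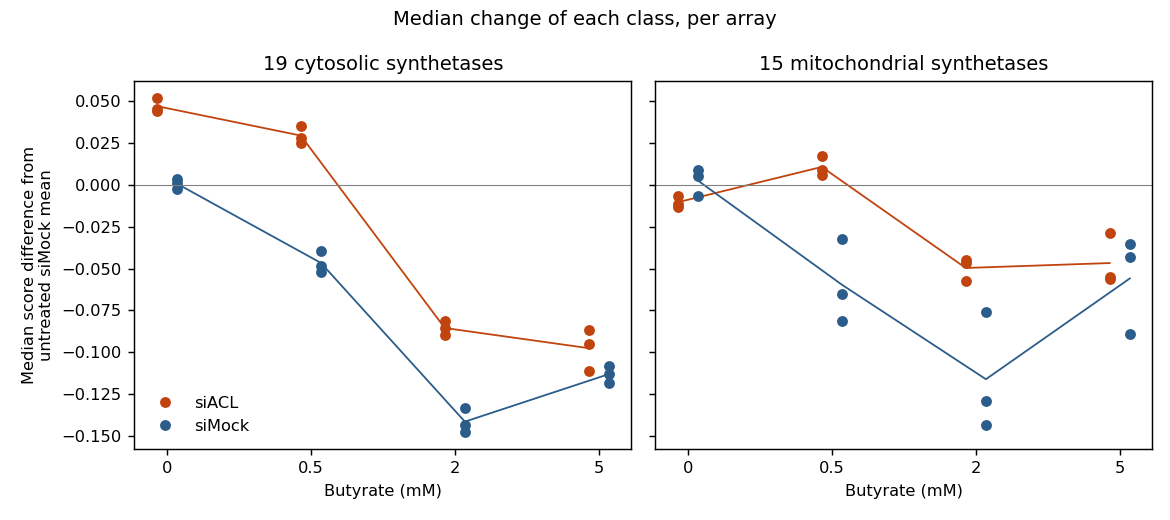
Median score difference from the untreated siMock mean over the 19 cytosolic genes (left) and the 15 mitochondrial genes (right), 1 point per array, with siACL points left of siMock points and lines through group means; doses are spaced equally. In the cytosolic panel the siACL points lie above the siMock points at 0, 0.5 and 2 mM, and the 2 sets come close at 5 mM. In the mitochondrial panel the siACL points lie above at 0.5 and 2 mM.

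IARS and YARS, the enzymes for isoleucine and tyrosine, fell furthest of the cytosolic class in both arms at 5 mM. IARS scored 0.94, 0.97 and 0.92 at 5 mM, against 1.34, 1.31 and 1.37 untreated, in siACL (−0.40 ± 0.03, adjusted p = 2.5e-09). In siMock it scored 0.80, 0.77 and 0.78 at 5 mM, against 1.29, 1.27 and 1.30 untreated (−0.51 ± 0.03, adjusted p = 5.8e-11). Its mean rank was the 82.7 percentile of the array at 5 mM, against 91.0 untreated, in siACL, and 78.3 against 90.1 in siMock. In neither arm did the treated and untreated arrays of IARS overlap, and its mean fell at every step of the dose in both.

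YARS, whose protein is also known as a secreted cytokine after cleavage, gave 1.30, 1.28 and 1.25 at 5 mM in siACL, against 1.76 on all 3 untreated arrays (−0.48 ± 0.02, adjusted p = 2.0e-12). In siMock it gave 1.25, 1.28 and 1.25 at 5 mM, against 1.73, 1.71 and 1.69 untreated (−0.45 ± 0.02, adjusted p = 2.6e-12). The siMock fall was already −0.44 ± 0.02 at 2 mM, the largest of any synthetase at that dose, with arrays at 1.27, 1.25 and 1.30. In siACL the 2 mM arrays stood at 1.42, 1.38 and 1.45 (−0.34 ± 0.02, adjusted p = 6.7e-10), again the largest. At 0.5 mM YARS also fell in both arms (−0.09 ± 0.02 in siACL and −0.21 ± 0.02 in siMock).

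The other cytosolic genes that fell at 5 mM in both arms did so by less. In siACL the differences were −0.26 for GARS, −0.25 for MARS and TARS, −0.24 for NARS and AARS, −0.17 for KARS, −0.14 for DARS, −0.10 for QARS and −0.09 for EPRS. In siMock they were −0.11 for GARS and MARS, −0.17 for TARS, NARS and EPRS, −0.24 for AARS, −0.25 for KARS, −0.07 for DARS and −0.13 for QARS. These are the enzymes for glycine, methionine, threonine, asparagine, alanine, lysine, aspartate and glutamine, with EPRS for glutamate and proline. CARS (cysteine), FARSA (a subunit of the phenylalanine enzyme) and WARS (tryptophan) fell at 5 mM in siACL, with differences of −0.21, −0.13 and −0.11. Their siMock differences of 0.05, −0.10 and −0.05 were not called. VARS (valine) fell at 5 mM in siMock (−0.10) and had an uncalled −0.03 in siACL. LARS, the leucine enzyme that also senses leucine for mTORC1, fell in siMock at 0.5 mM (−0.08) and 2 mM (−0.14) and differed by 0.02 in siACL and 0.00 in siMock at 5 mM, neither called. GARS and KARS, which supply both compartments, fell at 2 and 5 mM in both arms.

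RARS, SARS and HARS, the cytosolic enzymes for arginine, serine and histidine, ran the other way. RARS scored 1.97, 1.96 and 1.92 at 5 mM, against 1.69, 1.70 and 1.71 untreated, in siACL (0.25 ± 0.02, adjusted p = 2.7e-08). In siMock it scored 1.98, 2.01 and 2.01 at 5 mM, against 1.68, 1.62 and 1.64 untreated (0.36 ± 0.02, adjusted p = 1.9e-10). The arrays did not overlap in either arm, and the RARS mean rose at every step of the dose in both. HARS reached 1.49, 1.47 and 1.47 at 5 mM, against 1.35, 1.38 and 1.41 untreated, in siACL (0.09 ± 0.02, adjusted p = 0.001). In siMock it reached 1.54 on all 3 arrays at 5 mM, against 1.40, 1.36 and 1.35 untreated (0.17 ± 0.02, adjusted p = 1.5e-06). HARS rose at 5 mM alone: none of its differences at 0.5 and 2 mM was called.

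SARS gave 1.27, 1.30 and 1.32 at 5 mM, against 1.04, 1.11 and 1.15 untreated, in siMock (0.19 ± 0.03, adjusted p = 8.5e-06). In siACL it gave 1.23, 1.25 and 1.26 at 5 mM, against 1.19, 1.17 and 1.18 untreated (0.07 ± 0.03, adjusted p = 0.055). The siACL arrays at 2 mM lay lower, at 1.02, 1.08 and 1.10 (−0.11 ± 0.03, adjusted p = 0.0039), while those of siMock at 2 mM, at 1.12, 1.09 and 1.16, were not called (0.02 ± 0.03).

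**Figure D3:**
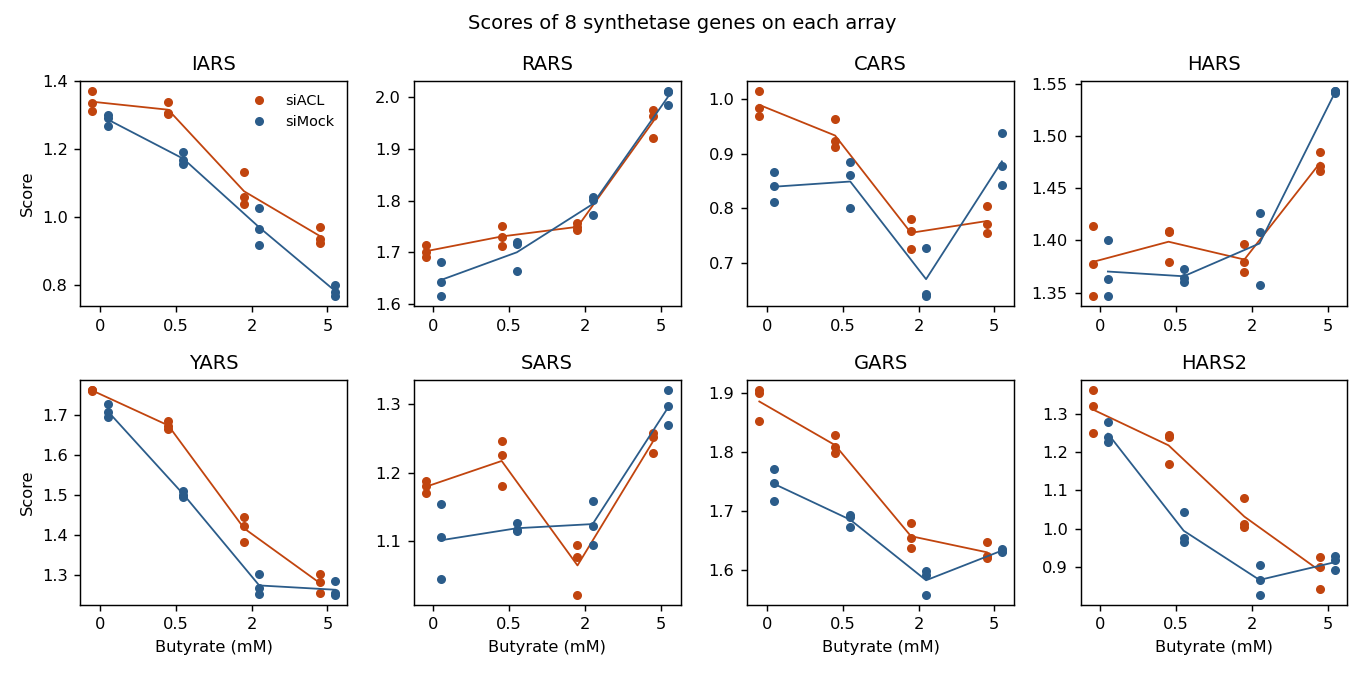
Scores of 8 synthetase genes on each array by butyrate dose (doses spaced equally, vertical scale set per gene), siACL points left of siMock points, with lines through the means of 3 arrays. IARS and YARS decline at every dose step in both arms and HARS2 does so in siACL, with its lowest siMock mean at 2 mM. RARS and HARS are highest at 5 mM, and CARS at 5 mM lies lower in siACL than in siMock.

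Among the mitochondrial genes, HARS2 fell furthest, at 0.90, 0.84 and 0.93 at 5 mM, against 1.36, 1.25 and 1.32 untreated, in siACL (−0.42 ± 0.03, adjusted p = 1.3e-08). In siMock it stood at 0.93, 0.92 and 0.89 at 5 mM, against 1.28, 1.24 and 1.23 untreated (−0.33 ± 0.03, adjusted p = 1.6e-07). At 0.5 mM HARS2 had the largest difference of any synthetase in siMock, with 0.97, 0.97 and 1.04 on its arrays (−0.25 ± 0.03, adjusted p = 3.2e-05), and was not called in siACL (−0.09 ± 0.03). FARS2, YARS2, LARS2 and EARS2 also fell at 2 and 5 mM in both arms. Their differences at 5 mM were −0.23, −0.22, −0.15 and −0.15 in siACL, and −0.30, −0.28, −0.26 and −0.16 in siMock. YARS2, the tyrosine enzyme, scored 0.95, 0.90 and 0.98 at 5 mM, against 1.14, 1.15 and 1.21 untreated, in siACL, and 0.84 on all 3 arrays at 5 mM, against 1.13, 1.11 and 1.13 untreated, in siMock. LARS2, the leucine enzyme, scored 0.33, 0.41 and 0.35 at 5 mM, against 0.48, 0.51 and 0.54 untreated, in siACL, and 0.29, 0.23 and 0.19, against 0.49, 0.49 and 0.50, in siMock. None of these treated and untreated arrays overlapped.

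AARS2 and MARS2 rose at 5 mM in both arms. MARS2, the enzyme for mitochondrial methionine, gave 0.57, 0.58 and 0.55 at 5 mM, against 0.46, 0.45 and 0.43 untreated, in siACL (0.12 ± 0.03, adjusted p = 0.0058). In siMock it gave 0.47, 0.56 and 0.63, against 0.48, 0.41 and 0.45 (0.11 ± 0.03, adjusted p = 0.011), and 1 treated array lay below the highest untreated one. MARS2 fell in siMock at 0.5 mM (−0.11 ± 0.03) and 2 mM (−0.10 ± 0.03), so its rise at 5 mM followed lower values at both smaller doses. AARS2, the alanine enzyme, rose by 0.10 ± 0.03 in siACL and 0.14 ± 0.03 in siMock at 5 mM. RARS2 rose at 5 mM in siACL (0.07) and at 2 mM in siMock (0.07). NARS2 rose at 5 mM in siMock (0.15), with an uncalled −0.02 in siACL. VARS2 rose at 2 mM in siACL (0.11) and at 5 mM in siMock (0.12). IARS2 fell in siMock at 2 mM (−0.15) and 5 mM (−0.12), TARS2 in siMock at 2 mM (−0.20) and SARS2 in siACL at 5 mM (−0.07). PARS2, the proline enzyme, was called in no comparison, with 0.06 ± 0.07 in siACL and 0.03 ± 0.07 in siMock at 5 mM.

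CARS2, the mitochondrial cysteine enzyme, rose at each dose in siACL. Its siACL arrays scored 0.54, 0.53 and 0.53 at 0.5 mM, 0.44, 0.51 and 0.49 at 2 mM and 0.46, 0.46 and 0.51 at 5 mM, against 0.32, 0.39 and 0.41 untreated. The differences were 0.16 ± 0.04 (adjusted p = 0.011), 0.11 ± 0.04 and 0.10 ± 0.04. In siMock the untreated arrays stood at 0.49, 0.53 and 0.46, and the differences of −0.05, −0.03 and −0.04 at 0.5, 2 and 5 mM were not called. The untreated siACL arrays were thus the low ones, but the difference of −0.12 from untreated siMock was not called. The change in siACL minus that in siMock was called at 0.5 mM (0.20 ± 0.05), in 3 of 12 fits that left out an array, and was not called at 2 mM (0.13 ± 0.05) or 5 mM (0.15 ± 0.05).

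Setting the 2 enzymes for 1 amino acid side by side gave 15 pairs, EPRS standing in the glutamate and the proline pair. At 5 mM both genes of a pair fell in 3 pairs in siACL (glutamate, phenylalanine and tyrosine) and in 3 in siMock (glutamate, isoleucine and tyrosine). Both rose in the arginine pair in siACL. They moved in opposite directions in 4 pairs in siACL and 5 in siMock. In alanine and methionine the cytosolic gene fell and the mitochondrial gene rose in both arms. Cysteine did so in siACL, and asparagine and valine in siMock. In histidine it was the reverse in both arms. At 5 mM 45.2% of all genes were called in siACL and 50.8% in siMock. Of genes in the same score range, 34.4% fell and 32.8% rose in siACL, and 37.2% fell and 35.5% rose in siMock. How many pairs of unrelated genes would move together or in opposite directions was not tested.

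HARS and HARS2 are neighbours on chromosome 5, transcribed away from each other from starts 85 bases apart (HARS at 140691370 on the minus strand, HARS2 at 140691455 on the plus strand, GRCh38.p14). The 84 bases between those starts, shown because the 2 genes diverge across so short a stretch, are given on the HARS2 strand.
Between HARS and HARS2, chr5:140691371-140691454, plus strand: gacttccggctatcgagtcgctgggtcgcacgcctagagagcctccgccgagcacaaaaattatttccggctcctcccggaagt
At 5 mM HARS rose by 0.09 in siACL and 0.17 in siMock, and HARS2 differed by −0.42 in siACL and −0.33 in siMock. The 2 proteins are close paralogs, and the probe sequences were not used here, so shared hybridisation was not tested.

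Of the cytosolic genes, 8 encode enzymes of the multisynthetase complex (DARS, EPRS, IARS, KARS, LARS, MARS, QARS and RARS). Of these, 6 fell and 1 rose at 5 mM in each arm. Of the 11 cytosolic genes outside it, 8 fell and 1 rose in siACL, and 6 fell and 2 rose in siMock. Among all genes tested, 22.6% fell and 22.7% rose in siACL, and 25.2% fell and 25.6% rose in siMock. In the same score range 34.4% fell in siACL and 37.2% in siMock. Enzymes of the complex thus did not move as 1 block, since RARS rose where IARS fell.

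Without butyrate, 2 cytosolic synthetases, CARS and GARS, were higher in siACL than in siMock and none was called lower (8 higher and 1 lower at an unadjusted p under 0.05), against 6.31% of all genes called (3.7% higher and 2.61% lower) and 9.58% in the same score range. The 5.88% of the 34 called was below both shares. CARS scored 0.97, 1.01 and 0.98 in siACL, against 0.81, 0.87 and 0.84 in siMock (0.15 ± 0.03, adjusted p = 0.0066). GARS scored 1.91, 1.90 and 1.85 in siACL, against 1.77, 1.75 and 1.72 in siMock (0.14 ± 0.02, adjusted p = 0.00031). Neither pair of groups overlapped. The difference lay above 0 in 17 of 19 cytosolic genes (median 0.05) and in 7 of 15 mitochondrial genes (median −0.01). Over all genes its median was 0.003.

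With butyrate at 0.5 mM, 14 synthetases were higher in siACL than in siMock, 10 of them cytosolic and 4 mitochondrial. None was lower by limma, also at an unadjusted p under 0.05. Of all genes 17.7% were called, 8.42% were lower and 9.26% were higher, as were 14.7% of genes in the same score range. HARS2 differed most, at 1.24, 1.24 and 1.17 in siACL, against 0.97, 0.97 and 1.04 in siMock (0.22 ± 0.03, adjusted p = 0.00018). LARS2 (0.21), YARS (0.17), YARS2 (0.16), MARS2 (0.16), IARS (0.14) and GARS (0.13) followed. At 2 mM 11 were higher and none was called lower by limma (2 at an unadjusted p under 0.05), against 19.1% of all genes called, 8.52% lower, 10.6% higher and 16.4% higher in the same score range. HARS2 again differed most, at 1.01, 1.00 and 1.08 in siACL, against 0.87, 0.91 and 0.83 in siMock (0.17 ± 0.03, adjusted p = 0.0022). FARSA (0.15), QARS (0.08), VARS (0.12) and KARS (0.12) were among the others.

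At 5 mM 5 were higher and 2 lower in siACL, against 13.7% of all genes called (8.8% higher and 4.91% lower). The 20.6% of the 34 called was below the 22.7% of genes in the same score range. Fitted on the 6 arrays compared alone, no synthetase was called at 0, 2 or 5 mM, and 6 were at 0.5 mM. Without replicate 3 of siACL at 5 mM the count at 5 mM was 4, and without replicate 1 or 2 of siMock at 0.5 mM the count at 0.5 mM was 9. IARS scored 0.94, 0.97 and 0.92 in siACL, against 0.80, 0.77 and 0.78 in siMock (0.16 ± 0.03, adjusted p = 0.00075). LARS2 scored 0.33, 0.41 and 0.35, against 0.29, 0.23 and 0.19 (0.13 ± 0.03). YARS2 (0.10), VARS (0.10) and EPRS (0.09) were also higher. CARS scored 0.75, 0.80 and 0.77 in siACL, against 0.88, 0.84 and 0.94 in siMock (−0.11 ± 0.03, adjusted p = 0.024), and HARS was lower by −0.07 ± 0.02 (adjusted p = 0.038). Leaving out each of the 6 arrays in turn, CARS was called in 2 fits (adjusted p up to 0.114) and HARS in 0 (up to 0.107).

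**Figure D4:**
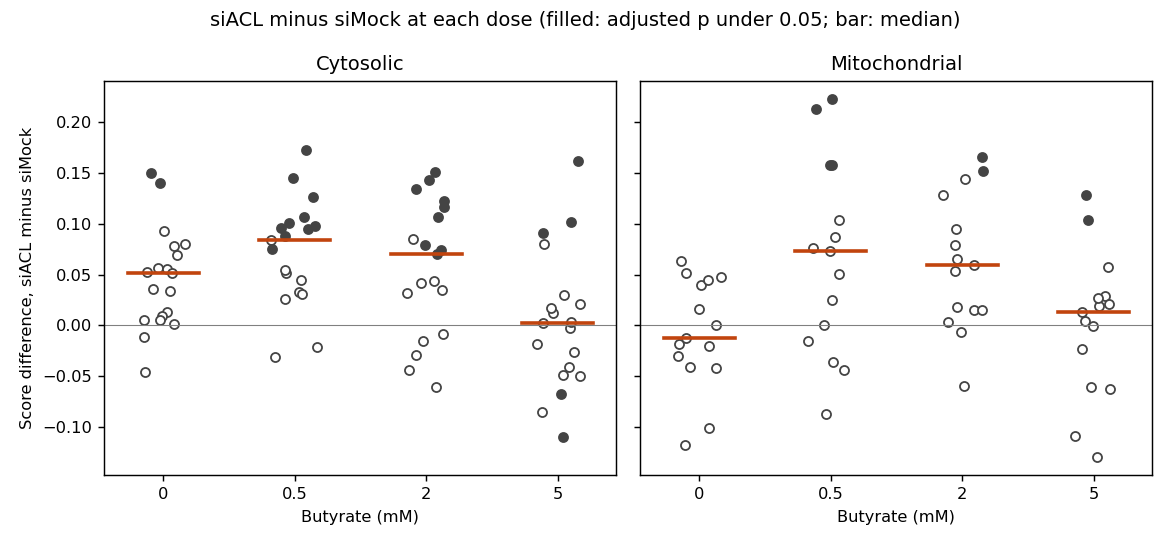
Score difference of siACL minus siMock at each butyrate dose for the cytosolic (left) and mitochondrial genes (right), 1 point per gene, filled where the adjusted p was under 0.05, with a bar at the median; doses are spaced equally and points are spread sideways for legibility. Called points lie above 0 at 0, 0.5 and 2 mM, and at 5 mM 5 lie above and 2 below.

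The change with butyrate differed between the arms for 8 genes, by the test of the change in siACL minus that in siMock. At 5 mM the change was lower in siACL for CARS (−0.26 ± 0.04, adjusted p = 0.00096), GARS (−0.14 ± 0.03, adjusted p = 0.0031), SARS (−0.13 ± 0.04, adjusted p = 0.048) and RARS (−0.10 ± 0.03, adjusted p = 0.041), against 8.85% of all genes called (5.5% higher and 3.35% lower) and 15.0% in the same score range (5.37% lower). For GARS the siACL arrays ended where those of siMock did, at 1.62, 1.65 and 1.62, against 1.63, 1.64 and 1.63, having started higher. For CARS the siACL arrays ended lower after starting higher. At 2 mM SARS alone was called (−0.14 ± 0.04, adjusted p = 0.041), against 6.19% of all genes (3.46% higher and 2.73% lower) and 10.4% in the same score range. At 0.5 mM the change was higher in siACL for CARS2 (0.20 ± 0.05), LARS2 (0.20 ± 0.04), LARS (0.12 ± 0.03) and YARS (0.12 ± 0.03), against 3.1% of all genes called (1.39% higher and 1.72% lower) and 5.24% in the same score range (2.51% higher). CARS, GARS and LARS2 kept their call without each of 12 arrays in turn. The others lost it without at least 1: RARS and SARS at 2 mM were called in 3 of 12, SARS at 5 mM in 2 of 12, LARS in 2 of 12, CARS2 in 3 of 12 and YARS in 7 of 12.

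The step between 2 and 5 mM, a comparison added after the dose curves were seen, held calls in both directions. In siACL 6 rose and 10 fell (47.1% of the 34), with 28.5% of all genes called and 45.8% of those in the same score range. In siMock 10 rose and 5 fell (44.1%), with 29.2% and 46.3% called. Both counts were thus near the share of genes of like score. RARS rose most in siACL, at 1.97, 1.96 and 1.92 at 5 mM, against 1.75, 1.74 and 1.76 at 2 mM (0.20 ± 0.02), followed by SARS (0.18), MARS2 (0.16) and AARS2 (0.14). CARS rose most in siMock, at 0.88, 0.84 and 0.94 at 5 mM, against 0.73, 0.64 and 0.64 at 2 mM (0.22 ± 0.03, adjusted p = 3.7e-05), followed by AARS2, RARS and MARS2 (0.21 each). IARS fell further over this step in both arms (−0.13 in siACL and −0.19 in siMock).

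At 2 mM all 7 cytosolic genes whose window holds the CARE core fell in siACL and in siMock, with differences between −0.32 and −0.17 in siACL and between −0.32 and −0.16 in siMock. The 8 without a match (EPRS, FARSA, HARS, KARS, QARS, RARS, SARS and WARS) had 4 that fell in siACL, and 5 that fell and 1 that rose in siMock. At 5 mM 7 of 7 fell in siACL and 6 of 7 in siMock, CARS being the one that did not. Of the 8 without a match, 5 fell and 2 rose in siACL, and 3 fell and 3 rose in siMock. Without butyrate, siACL minus siMock lay above 0 in all 7 with the core and in 7 of the 8 without a match. CARS and GARS, both with the core, were the ones called. At 0.5 mM 6 of the 7 with the core and 2 of the 8 without a match were higher in siACL. Of 249 other tested genes with the core, matched by symbol, 24.9% fell at 5 mM in siACL and 24.5% in siMock, against 26.4% and 28.8% of 8438 other genes without it. In siACL against siMock without butyrate, 9.24% of those with the core were higher, against 4.29% of those without it. At 0.5 mM these shares were 15.7% and 11.5%. They were 12.9% and 13.4% at 2 mM, and 10.4% and 11.1% at 5 mM, so no excess was seen at those doses. At 2 mM against untreated cells, 18.9% of the other genes with the core fell in siACL, a larger share than without it. In siMock 20.5% fell, a smaller share than the 22.9% without it. The motif was chosen with the falls of the synthetase genes known, so the split is a description and no test was made of it. YARS, with no window at hand, stands in neither class.

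**Figure D5:**
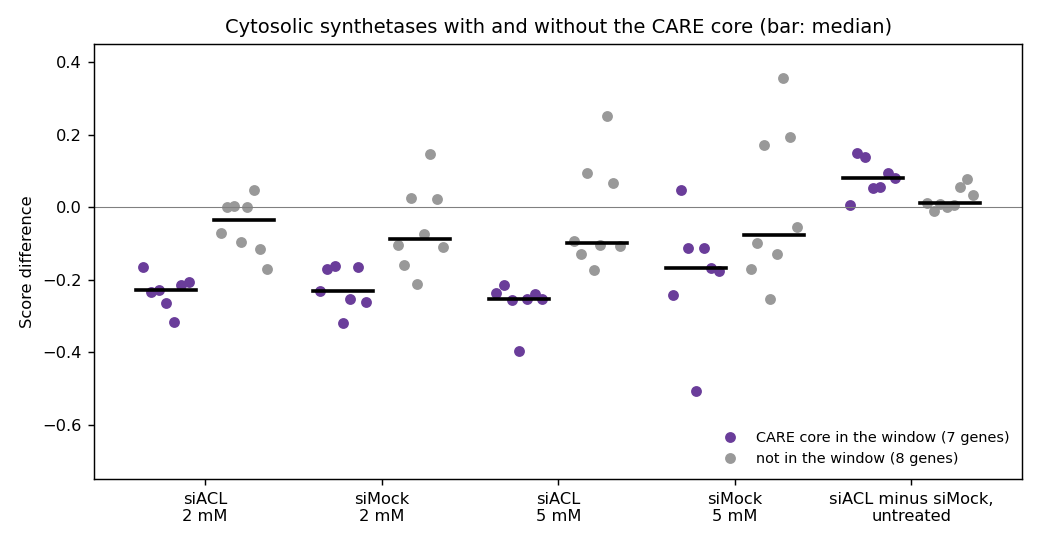
Score differences of the 15 cytosolic genes with a promoter window, 7 with the CARE core (left of each pair) and 8 without, in 4 comparisons with untreated cells and in siACL minus siMock without butyrate, 1 point per gene with a bar at the median. The genes with the core lie below 0 at 2 mM in both arms, and RARS, SARS and HARS are points above 0 at 5 mM among those without it.

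Most tested genes of the amino acid response that are not synthetases also fell at 5 mM. Of 27 listed, 23 were tested. At 5 mM 20 fell and 1 rose in siACL (median −0.32), and 17 fell and 2 rose in siMock (median −0.22). Of all genes tested, 22.6% fell and 22.7% rose in siACL, and 25.2% fell and 25.6% rose in siMock. SLC7A11, the cystine transporter, fell in both (−3.23 ± 0.25 in siACL and −1.20 ± 0.25 in siMock). CHAC1, a glutathione-degrading enzyme, fell in siACL (−1.36 ± 0.31), with an uncalled 0.41 ± 0.31 in siMock. ATF5, a transcription factor, fell in both (−1.20 ± 0.06 in siACL and −1.01 ± 0.06 in siMock). ATF4 itself, named after its values were seen, fell in both as well (−0.27 ± 0.02 in siACL and −0.17 ± 0.02 in siMock). Without butyrate 14 of the 23 were higher in siACL than in siMock and none was lower (median 0.12). Of all genes 3.7% were higher and 2.61% lower in that comparison. Among the 14 were CHAC1 (1.65 ± 0.31) and SLC7A11 (1.58 ± 0.25). Between 2 and 5 mM, 1 of the 23 rose and 9 fell in siACL, against 4 and 6 of the 19 cytosolic synthetases. In siMock 1 rose and 5 fell, against 7 and 3 of the cytosolic synthetases. Of all genes 28.5% were called over this step in siACL and 29.2% in siMock. Whether these genes vary with the synthetases, and their part in the result, was not tested.

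For the other lists, the share of all genes called at 5 mM was 45.2% in siACL and 50.8% in siMock. Of 7 cytosolic elongation factors, 5 fell in siACL and 6 in siMock at 5 mM and none rose, against 22.6% and 25.2% of all genes lower. Their mean scores of 1.48 to 2.69 were high, so small differences can be called. No background of like score was taken for them. EEF1B2, an exchange factor, fell in both arms (−0.24 in siACL and −0.36 in siMock), as did EEF1A2, which brings charged transfer RNA to the ribosome (−0.22 in siACL and −0.29 in siMock). Of 10 tested factors of mitochondrial translation, 3 rose and 2 fell in siACL and 3 rose and 3 fell in siMock, which is near that share. Their median difference was −0.017 in siACL and 0.007 in siMock, and the 3 named next are those that rose. MTRF1L, a mitochondrial release factor, rose by 0.28 in siACL and 0.32 in siMock. GFM1, a mitochondrial elongation factor, rose by 0.20 in siACL and 0.29 in siMock, and MTIF3, an initiation factor, by 0.22 in siACL and 0.20 in siMock. Of 8 tested genes that assist charging or editing, 2 rose and 1 fell in siACL and 4 rose and 2 fell in siMock, among them SEPHS1 (−0.30 in siACL and −0.37 in siMock), PTRH2 (0.13 and 0.15) and SEPHS2 (an uncalled 0.10 in siACL and 0.28 in siMock). Of the 2 scaffolds of the complex tested, AIMP2 was not called at 5 mM, and SCYE1 (now AIMP1), a gene of low rank, fell in siACL (−0.97 ± 0.36, adjusted p = 0.035).

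WARS, the tryptophan enzyme, is known to be induced by interferon gamma. It fell at 2 and 5 mM in siACL (−0.17 and −0.11) and at 0.5 and 2 mM in siMock (−0.11 each). Of 10 tested interferon gamma genes, 4 rose and 3 fell at 5 mM in each arm, against the 45.2% and 50.8% of all genes called. PSMB9, an immunoproteasome subunit, rose by 0.60 ± 0.20 in siACL and 0.76 ± 0.20 in siMock, IFNGR1, a receptor chain, rose by 0.36 in siACL and 0.42 in siMock, and IFNGR2, the other chain, fell (−0.34 in siACL and −0.43 in siMock). Of 5 genes of the MAX network of transcription factors, 1 rose and 2 fell at 5 mM in siACL and 2 rose and 1 fell in siMock, against the same shares. MXD1 rose by 0.24 in siACL and 1.25 in siMock, MNT fell (−0.29 in siACL and −0.20 in siMock), and MAX rose by 0.41 in siMock, with an uncalled 0.34 in siACL.

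FARSLB is an older name of FARSB, the second subunit of the cytosolic phenylalanine enzyme, and was matched by its accession. It scored 3.15, 3.17 and 3.49 at 5 mM, against 2.78, 2.84 and 2.91 untreated, in siACL (0.43 ± 0.14, adjusted p = 0.015). In siMock it scored 3.90, 3.33 and 3.21 at 5 mM, against 3.10, 3.21 and 3.00 untreated (0.38 ± 0.14, adjusted p = 0.027). The 3.90 is the highest score of the scale, and without that array the siMock difference was 0.17. Treated and untreated siMock arrays overlapped, at 3.21. Leaving out each array in turn, the call was made in 4 of 6 fits in siACL and 3 of 6 in siMock.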

How the data were processed

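Total RNA of 24 HCT116 samples was labelled with biotin and hybridised to Illumina arrays, per the labels' protocols. The deposited values, used as given by the authors, are of the unit score: each follows the normal quantile of its rank within the array, with a largest gap of 0.000744, on a scale from −3.90 to 3.90. How the authors made them is not given in the sources used here, and no depth or signal over background is known. The planned tests assumed log2 signals and were applied to the scores. A second table holds 48 columns tied to no sample by their names, and these were not used.

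Of 20747 entries, 18172 with a symbol were fitted in R 4.3.3 using limma 3.58.1. The model held 1 mean for each group, without block or filter, and used Benjamini-Hochberg adjustment per comparison. There were 13 planned comparisons, and 2 were added after seeing the data. P-values measure the spread between samples that the labels call biological replicates, 3 per group. The genes, lists, pairs and motifs were chosen with earlier results of these data known. The text names every synthetase, with arrays for the 3 largest called rises and falls in 4 main comparisons, the largest in each other, and 2 members of each other list. RefSeq records matched 32 genes by accession and 2 by symbol. The fit was tested on simulated data. Alternatives changed the arrays fitted, weights, variance prior, block, scale, genes and threshold.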

Additional observations from a re-analysis of the deposited data

Results flagged for a closer look

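The tests of the siACL change minus the siMock change passed the threshold for 8 synthetases in 9 cases, which marks them as differing between the arms. At 5 mM butyrate these were CARS (−0.26), GARS (−0.14), RARS (−0.10) and SARS (−0.13). At 2 mM it was SARS (−0.14). At 0.5 mM these were LARS (0.12), YARS (0.12), CARS2 (0.20) and LARS2 (0.20). All 4 cases at 5 mM were cytosolic and below 0, and all 4 at 0.5 mM were above 0. The share of the 34 called at 5 mM was 11.8%, below the 15.0% of genes in the same score range (8.85% of all genes). At 2 mM it was 2.94%, against 10.4% (6.19% of all genes), and at 0.5 mM 11.8%, against 5.24% (3.1% of all genes). CARS, GARS and LARS2 alone kept their call without each of 12 arrays in turn. Each change is measured from the untreated arrays of its own arm, which were higher in siACL for CARS and GARS.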

How the results depend on the processing

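No called gene difference changed sign under the alternatives run. Medians near 0 did so when an array was left out, namely the cytosolic median in siACL at 0.5 mM and between the arms at 5 mM, and the mitochondrial median between the untreated arms, of the change difference at 5 mM and of 5 against 2 mM in siACL. The cytosolic median between the arms at 5 mM also changed sign with array weights and with FARSLB counted. Of the 510 gene differences, 500 stayed on their side of the threshold with the replicate number as a block, 495 with array weights and 419 when fitted only on the arrays compared. Replicate numbers did not pair samples: the deviations of same-numbered arrays correlated at −0.0404 to 0.0298, over 0.1 in 0 of 84 pairs, and the block moved 1 count by over 1.5 times, to 2 for the change difference at 2 mM. The cause of the shifts below was not tested.

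Fitted only on the arrays compared, the number of synthetases called was 0 (0.5 mM) and 13 (2 mM) in siACL, 3 (0.5 mM) in siMock, 0, 6, 0 and 0 between the arms at 0, 0.5, 2 and 5 mM, 1, 0 and 2 for the change differences at 0.5, 2 and 5 mM, and 6 in siACL and 7 in siMock between 5 and 2 mM. At an adjusted p under 0.01 it was 1 in siACL and 6 in siMock at 0.5 mM, 8, 6 and 4 between the arms at 0.5, 2 and 5 mM, 0, 0 and 2 for the change differences, and 9 in siMock between 5 and 2 mM. Array weights gave 7 in siACL at 0.5 mM and 2 for the change difference at 2 mM, with medians of −0.11 (mitochondrial, siMock, 2 mM), −0.12 (cytosolic, siACL, 2 mM) and 0.06 (cytosolic, between the arms, 2 mM). Percentile ranks gave 1 in siACL at 0.5 mM, 9 between the arms at 0.5 mM, and 2 for each change difference. Genes with a mean score above 0 gave 7 in siACL at 0.5 mM, 5 between the untreated arms, and 6 and 7 for the change differences at 2 and 5 mM. A trended, robust prior gave 5 between the untreated arms and 3 for the change difference at 2 mM, and all entries gave 0 and 2 for those at 2 and 5 mM. Counting FARSLB, an alternative chosen after seeing the data, gave cytosolic medians of −0.11 in siACL and −0.15 in siMock at 2 mM, 0.04 and 0.057 between the arms at 0 and 2 mM, and 0.013 and −0.04 for the change differences at 2 and 5 mM.

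Leaving out each array in turn, the number called ranged over 1 to 3 (siACL at 0.5 mM), 15 to 18 (siACL at 2 mM), 22 to 26 (siACL at 5 mM), 8 to 11 (siMock at 0.5 mM), 21 to 25 (siMock at 2 mM), 22 to 25 (siMock at 5 mM), 2 to 3 (siACL against siMock untreated), 9 to 11 (siACL against siMock at 0.5 mM), 8 to 11 (siACL against siMock at 2 mM), 4 to 6 (siACL against siMock at 5 mM), 1 to 3 (the change difference at 0.5 mM), 0 to 3 (that at 2 mM), 2 to 5 (that at 5 mM), 12 to 16 (5 against 2 mM in siACL), 9 to 14 (5 against 2 mM in siMock). The cytosolic median ranged, in the same order of comparisons, over −0.010 to 0.015, −0.13 to −0.093, −0.158 to −0.133, −0.056 to −0.029, −0.153 to −0.137, −0.118 to −0.10, 0.040 to 0.050, 0.063 to 0.092, 0.056 to 0.078, −0.003 to 0.006, 0.0088 to 0.025, 0.011 to 0.043, −0.062 to −0.034, −0.042 to −0.025, 0.0077 to 0.058. The mitochondrial median ranged, in the same order of comparisons, over 0.001 to 0.014, −0.062 to −0.038, −0.082 to −0.051, −0.059 to −0.030, −0.158 to −0.099, −0.070 to −0.043, −0.015 to 0.000, 0.044 to 0.087, 0.047 to 0.071, 0.001 to 0.018, 0.034 to 0.093, 0.048 to 0.087, −0.0023 to 0.040, −0.031 to 0.002, 0.021 to 0.050. Counts moved by over 1.5 times without siMock untreated replicate 2 (8 in siMock at 0.5 mM), siACL untreated replicate 1 (1 in siACL at 0.5 mM), siACL untreated replicate 2 or siACL 0.5 mM replicate 2 (2 there), siMock 0.5 mM replicate 1 or 2 (9 between the arms at 0.5 mM), siACL 5 mM replicate 3 (4 between the arms at 5 mM) and siMock 5 mM replicate 2 (9 between 5 and 2 mM in siMock) and, for the change differences, without many of the arrays they use (ranges above).
Scores carry no signal over background, so what array sensitivity limits is unknown.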
